A study of Mus musculus with 6 samples.

Results

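The 10 genes described here are 9 that serve to make, package or take up the monoamine transmitters dopamine, noradrenaline and serotonin and 1 transcription factor of serotonin neurons, Fev. They were picked by symbol from the 55450 genes of each deposited table: Th, Ddc, Gch1, Dbh, Tph2, Slc18a2, Slc6a3, Slc6a2, Slc6a4 and Fev. All 10 symbols matched 1 row each, and 9 of the genes held enough reads to be tested. The reads come from long RNA of whole mouse brain, in 3 libraries of TRMT1L KO animals and 3 of WT animals, described as biological triplicates. TRMT1L is a relative of the tRNA guanosine methyltransferase TRMT1. The knockout allele, strain, age and sex of the animals, and whether tissue was pooled, are not given in the sources used here.

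Monoamine neurons are few, and their cell bodies sit in small clusters: dopamine neurons mostly in the ventral midbrain, with others in the hypothalamus and olfactory bulb, noradrenaline neurons in the locus coeruleus and lower brainstem, and serotonin neurons in the raphe nuclei. Each cluster sends axons through much of the brain. Tyrosine hydroxylase (Th) and tryptophan hydroxylase (Tph2) carry out the rate-limiting steps for catecholamines and for serotonin, and both need the cofactor tetrahydrobiopterin, whose synthesis starts with Gch1. In RNA from a whole brain, fewer cells of a type and less RNA per cell cannot be told apart.

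The promoters of 4 of the genes are shown because their transcripts behaved differently across the libraries described next: Tph2 and Slc6a4 varied widely and in step, Th varied less, and Fev, the third serotonin gene, was thinly counted. Each line gives the 250 bases before the transcription start, on the gene's own strand, from RefSeq on GRCm38.p6. Capitals mark matches on either strand to the letters searched. These were the TATA-box letters TATAAA, the cyclic AMP response element TGACGTCA with its shorter form TGACG, which lies inside it, and the ETS-type letters CCGGAAGT with the shorter form GGAAGT, which lies inside that one.
Th, chr7:142899996-142900245, minus strand: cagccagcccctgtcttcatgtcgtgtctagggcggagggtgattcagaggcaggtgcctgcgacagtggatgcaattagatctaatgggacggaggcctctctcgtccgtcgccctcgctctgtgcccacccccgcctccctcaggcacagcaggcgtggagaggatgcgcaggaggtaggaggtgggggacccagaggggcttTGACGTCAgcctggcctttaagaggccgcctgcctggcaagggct
Tph2, chr10:115185023-115185272, minus strand: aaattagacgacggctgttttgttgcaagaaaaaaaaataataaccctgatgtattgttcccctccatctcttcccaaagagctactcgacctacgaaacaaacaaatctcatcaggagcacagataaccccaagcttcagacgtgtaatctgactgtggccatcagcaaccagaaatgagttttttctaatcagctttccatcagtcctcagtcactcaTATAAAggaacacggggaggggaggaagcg
Slc6a4, chr11:76998347-76998596, plus strand: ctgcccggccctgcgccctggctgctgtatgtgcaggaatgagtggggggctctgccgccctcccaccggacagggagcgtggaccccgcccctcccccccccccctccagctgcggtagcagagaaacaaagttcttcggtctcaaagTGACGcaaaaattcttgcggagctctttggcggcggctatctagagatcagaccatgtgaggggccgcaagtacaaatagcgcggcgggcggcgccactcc
Fev, chr1:74885409-74885658, minus strand: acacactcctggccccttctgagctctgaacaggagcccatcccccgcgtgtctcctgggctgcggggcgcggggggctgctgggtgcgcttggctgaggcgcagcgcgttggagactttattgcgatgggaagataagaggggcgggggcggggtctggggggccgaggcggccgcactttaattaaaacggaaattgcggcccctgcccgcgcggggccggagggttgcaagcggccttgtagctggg

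The Th window held TGACGTCA, the palindromic cyclic AMP response element, from 45 to 38 bases before the start, and 1.55% of 32817 mouse windows of the same length held it. The Tph2 window held TATAAA from 30 to 25 bases before the start, a motif found in 12.4% of all windows. Slc6a4 held TGACG (17.7% of all windows), 101 to 97 bases before its start, and Fev held none of the letters searched. The ETS-type letters CCGGAAGT and GGAAGT, of the kind bound by the family of factors to which Fev belongs, were in none of the 10 windows of the 9 members that matched, against 2.88% and 19.7% of all windows. The promoters of Slc6a4 and Fev were 64.8% and 68.0% G and C, that of Tph2 43.6%, with a median of 52.4% over all windows. No letters searched were present in more than 1 of the 3 serotonin genes.

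Between 31201119 and 36145961 reads were counted in genes per library. Trmt1l itself, counted 1279, 1034 and 1158 times in WT and 93, 101 and 106 times in KO, followed the genotype labels (log2 fold change -3.58, SE 0.0813; edgeR adjusted p = 6.95e-10). Libraries WT 3 and KO 1 stood apart from the other 4 in values outside the 10 genes, noticed after the data were seen. Values are therefore also given without WT 3 and KO 1 where that changed a direction or moved a value by more than 1.5 times. Values for each genotype are in the order of the libraries' numbers. Levels below are in CPM, read counts scaled to a common library size with TMM factors, and levels are compared between genes as CPM per kilobase of merged exons.

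All 10 genes were detected in every library, and their levels differed widely. Per kilobase, Th was highest, at 5.43 ± 0.945 CPM (SD over 6 libraries), above Slc6a3 (2.71 ± 0.226), Ddc (2.51 ± 0.441), Tph2 (2.16 ± 1.28) and Slc18a2 (1.81 ± 0.519). Dbh followed at 0.810 ± 0.104 CPM per kilobase, then Slc6a4 (0.793 ± 0.460), Slc6a2 (0.378 ± 0.0687), Gch1 (0.347 ± 0.0744) and Fev (0.0946 ± 0.0734). Of the 9 neighbouring pairs in this order, 3 had library ranges that did not overlap: Th above Slc6a3, Slc18a2 above Dbh, and Gch1 above Fev. The dopamine genes Th and Slc6a3 thus lay above the noradrenaline genes Dbh and Slc6a2 in all 6 libraries, whereas the places of Tph2 and Slc6a4 depended on the library and Fev was the lowest in each.

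The 10 genes were compared between genotypes to ask whether loss of TRMT1L changes monoamine transcripts. By edgeR's quasi-likelihood test, 0 of the 9 tested were called at an adjusted p-value of 0.05, beside 0.00942% of the 21237 genes tested. At an unadjusted p-value under 0.05 there were also 0 of 9, beside 7.92% of all genes. DESeq2 gave none of the 9 an adjusted p-value, and 0 of them an unadjusted p-value under 0.05; limma-voom called 0. The groups overlapped for all 10 genes, while they did not overlap for 14.4% of genes tested. The median log2 fold change, KO over WT, was 0.19 over the 9 genes and 0.00013 over all genes tested. It was above 0 for 7 of the 9, beside 50.1% of all genes. The median depended on single libraries: it was 0.39 without WT library 1, 0.098 without WT library 2, 0.078 without KO library 1 and 0.015 without both WT 3 and KO 1.

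**Figure D1:**
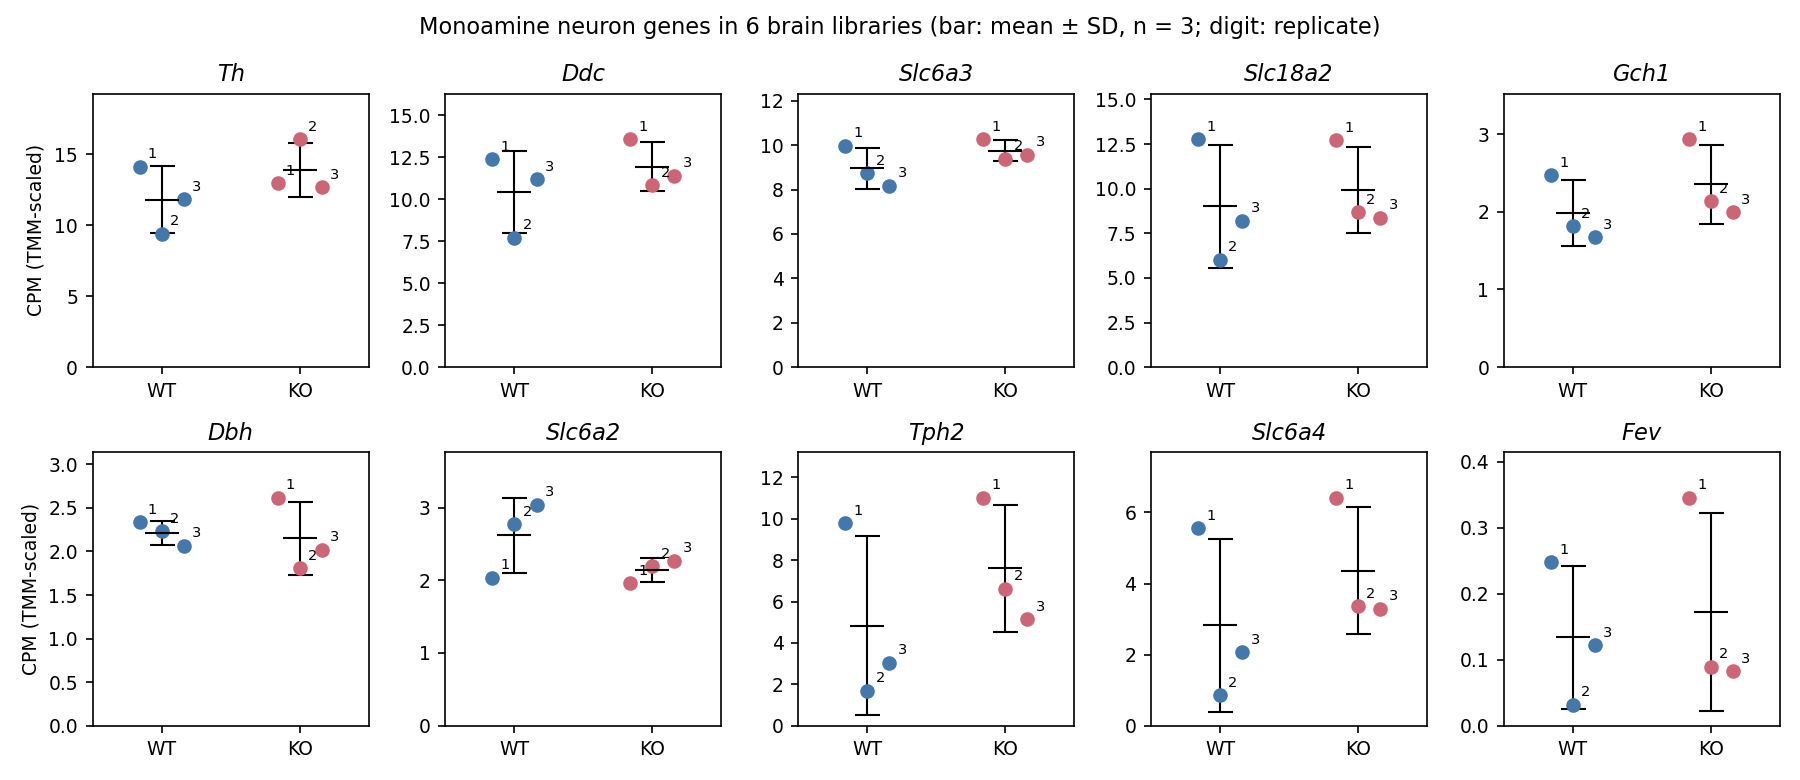
Level of each of the 10 genes (CPM, TMM-scaled, vertical axes starting at 0 and differing between panels) in WT (blue) and KO (red) libraries; points are libraries with their replicate number and bars are the mean ± SD of 3. WT and KO ranges overlap in every panel, and in every panel but Th and Slc6a2 the libraries WT 1 and KO 1 are the highest of their groups.

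Th makes the dopamine precursor L-DOPA from tyrosine. Its gene lies on chr7:142892752-142931128 (GRCm38). It measured 14.1, 9.41 and 11.8 CPM in WT and 13.0, 16.1 and 12.7 CPM in KO. Library KO 2 was the highest and WT 2 the lowest, and the other 4 were mixed. The log2 fold change was 0.23 (SE 0.139, 95% interval -0.071 to 0.54; edgeR adjusted p = 0.706). It was 0.098 without WT library 2, 0.12 without KO library 2 and 0.39 without WT library 1.

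Ddc, the decarboxylase that turns L-DOPA into dopamine and 5-hydroxytryptophan into serotonin, measured 12.4, 7.72 and 11.2 CPM in WT and 13.6, 10.8 and 11.4 CPM in KO. WT 2 alone lay well below the rest. Its log2 fold change was 0.19 (SE 0.152, 95% interval -0.14 to 0.52; edgeR adjusted p = 0.786), and it was 0.017 without WT library 2, 0.086 without KO library 1 and 0.33 without WT library 1.

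Gch1, the first enzyme of cofactor synthesis, was counted 90, 57 and 55 times in WT and 102, 72 and 72 times in KO. The means were 1.99 ± 0.427 CPM for WT and 2.36 ± 0.508 CPM for KO (SD of 3 libraries each). The libraries numbered 1 were the highest of each group. The log2 fold change was 0.24 (SE 0.204, 95% interval -0.21 to 0.68; edgeR adjusted p = 0.800) and turned to -0.061 without WT 3 and KO 1. It was 0.048 without KO library 1, 0.13 without WT library 3 and 0.43 without WT library 1.

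Slc18a2 encodes VMAT2, the transporter that loads all 3 transmitters into vesicles. It measured 12.8, 6.03 and 8.20 CPM in WT and 12.7, 8.67 and 8.38 CPM in KO. WT 1 and KO 1 were about equal and stood above the other 4 libraries. The log2 fold change was 0.13 (SE 0.233, 95% interval -0.38 to 0.64; edgeR adjusted p = 0.913). It was 0.48 without WT library 1, 0.22 without KO library 2, 0.24 without KO library 3 and 0.068 without WT library 3, and turned to -0.083 without WT library 2, to -0.087 without KO library 1, to -0.15 without WT 3 and KO 1, and to -0.0088 with reads counted without regard to strand. The antisense gene Gm29261 overlaps Slc18a2 exons over 111 bases, and its part in that last value was not tested.

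Slc6a3 encodes the dopamine transporter, the marker of midbrain dopamine neurons among the members. It was the steadiest of the 10, at 9.98, 8.74 and 8.17 CPM in WT and 10.3, 9.39 and 9.57 CPM in KO, a ratio of 1.26 between the highest and the lowest library. Its log2 fold change was 0.12 (SE 0.10, 95% interval -0.10 to 0.34; edgeR adjusted p = 0.797), and it was 0.018 without WT 3 and KO 1, 0.058 without WT library 3, 0.078 without KO library 1 and 0.21 without WT library 1.

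The 2 noradrenaline genes did not lean the same way as the rest. Dbh, which turns dopamine into noradrenaline, measured 2.34, 2.23 and 2.07 CPM in WT and 2.62, 1.81 and 2.02 CPM in KO, with 61 to 91 counts a library. Its log2 fold change was -0.041 (SE 0.173, 95% interval -0.42 to 0.34; edgeR adjusted p = 0.971), and leaving out WT 1, KO 2 or KO 3 made it 0.0022, 0.065 or 0.0036. It was -0.087 without WT 3, -0.21 without KO 1 and -0.25 without both. Slc6a2, the noradrenaline transporter, measured 2.03, 2.78 and 3.04 CPM in WT and 1.96, 2.20 and 2.27 CPM in KO. Only WT 1 among the WT libraries fell within the KO range. Its log2 fold change was -0.28 (SE 0.176, 95% interval -0.67 to 0.10; edgeR adjusted p = 0.719) and stayed below 0 in all alternatives tested, between -0.44 without WT library 1 and -0.099 without WT 3 and KO 1. It was -0.16 without WT library 3.

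Of the 9 tested, the serotonin genes Tph2 (chr10:115078641-115185022, GRCm38) and Slc6a4 (chr11:76998603-77032340) had the largest fold changes and the widest spread. Tph2 measured 9.78, 1.69 and 3.04 CPM in WT (356, 53 and 100 counts) and 11.0, 6.62 and 5.15 CPM in KO (383, 223 and 186 counts). WT 1 lay with KO 1 at the top, WT 2 and WT 3 lay at the bottom, and KO 2 and KO 3 lay between. The log2 fold change was 0.63 (SE 0.469, 95% interval -0.40 to 1.65; edgeR adjusted p = 0.770), an interval that holds both 0 and 1.

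Slc6a4, the serotonin transporter, followed the same order of libraries. It measured 5.55, 0.861 and 2.07 CPM in WT (202, 27 and 68 counts) and 6.42, 3.36 and 3.29 CPM in KO (223, 113 and 119 counts). Its log2 fold change was 0.60 (SE 0.467, 95% interval -0.43 to 1.62; edgeR adjusted p = 0.781). Both fold changes rested on single libraries. Without WT library 1 they were 1.68 for Tph2 and 1.56 for Slc6a4 (edgeR adjusted p = 0.657 and 0.779), without WT library 2 they were 0.23 and 0.18, without WT library 3 they were 0.38 and 0.41, without KO library 1 they were 0.26 and 0.21, and without WT 3 and KO 1 they were 0.015 and 0.026. Without a filter on low counts both genes passed, with the same fold changes (0.63 and 0.60; edgeR adjusted p = 0.000414 and 0.0238). With 37245 genes in it, of which 298 were called, that model shrank the spread of each gene fully to a common trend. Over the alternatives edgeR's or limma's adjusted p ranged from 0.000414 to 0.998 for Tph2 and from 0.0238 to 0.996 for Slc6a4.

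Fev, also called Pet-1, is the transcription factor that marks serotonin neurons and drives their serotonin genes. It had 9, 1 and 4 counts in WT and 12, 3 and 3 in KO, too few for the test. The exact Poisson 95% interval ran from 4.12 to 17.1 counts in WT 1 and from 0.0253 to 5.57 in WT 2, and covers counting error only. Its highest libraries were again KO 1 and WT 1 and its lowest was WT 2, but WT 3 lay above KO 2 and KO 3, unlike in Tph2 and Slc6a4.

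**Figure D2:**
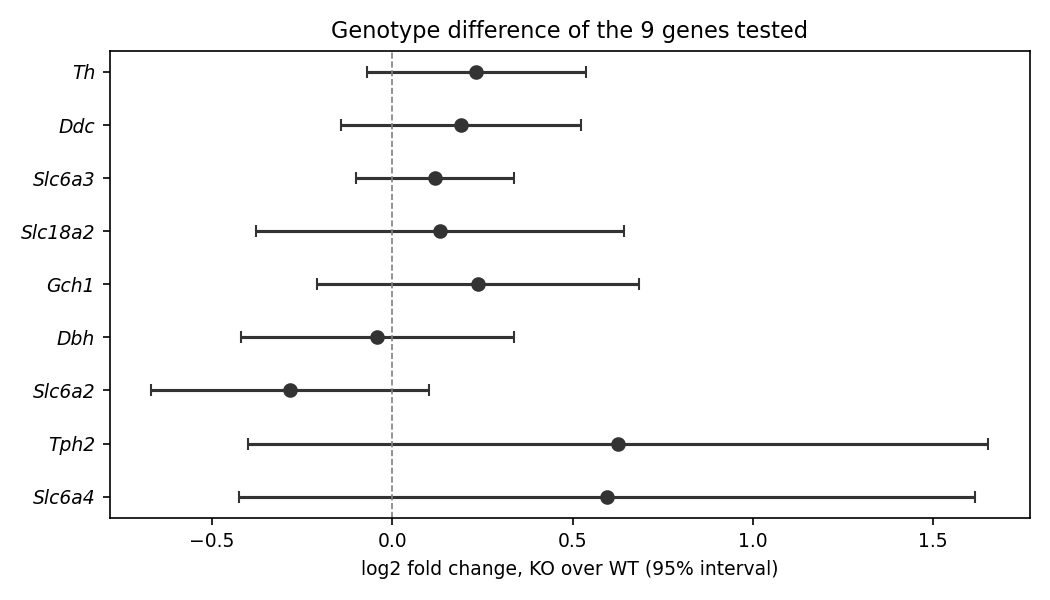
Log2 fold change, KO over WT, of the 9 tested genes (points) with 95% intervals from edgeR's quasi-likelihood fit (bars); the dashed line is 0. Every interval crosses 0, and those of Tph2 (-0.40 to 1.65) and Slc6a4 (-0.43 to 1.62) are the widest.

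Tph2 and Slc6a4 were among the genes that varied most between libraries, and they varied together. The highest library exceeded the lowest 6.52-fold for Tph2 and 7.45-fold for Slc6a4, against 2.12-fold for Slc18a2, 1.76-fold for Ddc, 1.71-fold for Th and 1.26-fold for Slc6a3. The coefficient of variation over 6 libraries was 59.2% for Tph2 and 58.1% for Slc6a4, with 6.79% and 8.93% from counting alone, and for Fev 77.6%, with 43.3% from counting alone. By the SD of log2 CPM, Slc6a4 and Tph2 ranked 15 and 16 among 17301 tested genes of at least 1 CPM, Slc18a2 315 and Slc6a3 7109. While the level of Tph2 varied 6.52-fold, its ratio to Slc6a4 counts stayed between 1.47 and 1.97 in the 6 libraries. Summed, the serotonin genes ranged from 2.58 to 17.8 CPM, the dopamine pair Th and Slc6a3 from 18.2 to 25.5 CPM, and the noradrenaline pair Dbh and Slc6a2 from 4.01 to 5.11 CPM.

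**Figure D3:**
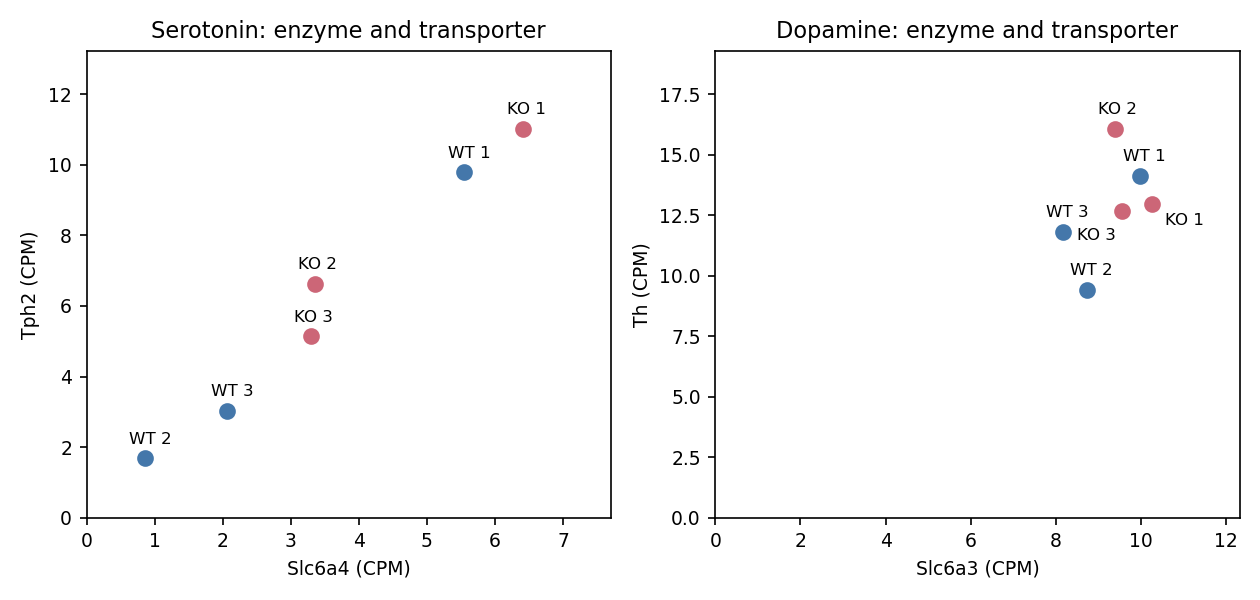
Enzyme against transporter in each library (CPM, both axes from 0; WT blue, KO red), for serotonin (Tph2 and Slc6a4, left) and dopamine (Th and Slc6a3, right). The serotonin pair spreads along a line from WT 2 (1.69 and 0.861 CPM) to KO 1 (11.0 and 6.42 CPM), while Slc6a3 stays between 8.17 and 10.3 CPM.

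Correlations of log2 CPM over the 6 libraries were computed for all 36 pairs of the 9 tested genes, with two-sided exact permutation tests. Tph2 and Slc6a4 had Pearson's r = 0.987 (exact permutation p = 0.00139, Benjamini-Hochberg adjusted 0.0333) and Spearman's rho = 1 (exact permutation p = 0.00278, adjusted 0.05). Without the 2 libraries farthest from the median of Tph2, r was 0.962. Slc18a2 followed Tph2 (r = 0.941, exact permutation p = 0.00278, adjusted 0.0333; rho = 0.943, exact permutation p = 0.0167, adjusted 0.06), with r = 0.904 when the 2 libraries farthest from the median of Slc18a2 were left out. Over deviations from the group means the same pairs had r = 0.983 and 0.981, so the pattern lay within the genotypes. Slc6a2 went the other way, with r below 0 against all 8 other genes and r = -0.985 with Slc6a3 (exact permutation p = 0.00278, adjusted 0.0333; rho = -0.943, exact permutation p = 0.0167, adjusted 0.06), or -0.923 without the 2 libraries farthest from the median of Slc6a3. The coefficient of variation over 6 libraries was 18.2% for Slc6a2 and 8.35% for Slc6a3, with 11.1% and 5.58% from counting alone. Genes of 1 library share its tissue and depth, so these correlations describe the libraries.

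The genes with the most similar pattern to the mean of Tph2, Slc6a4 and Fev, members left out, were Tmem256 (r = 0.987), Baiap3 (0.984), Vit (0.982), Wwox (0.982) and Alk (0.981), over 6 libraries and among 17292 genes, of which 95 had r above 0.9. Their own range was far smaller, at 1.40-fold between the highest and lowest library for Baiap3 and 1.09-fold for Wwox. For the mean of Th, Slc6a3 and Slc18a2 they were Rwdd2b (0.991), Eid3 (0.987), Vit (0.987), Tmem256 (0.985) and Wwox (0.979). With 6 points many genes reach such values.

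Markers of brain regions also differed between libraries, and their levels are given beside the members. The transcription factors En1 and Lmx1a, which shape midbrain and isthmus neurons, were singled out after their values were seen. En1 measured 1.98, 1.15 and 1.28 CPM in WT and 2.42, 1.60 and 1.96 CPM in KO, and Lmx1a 1.37, 0.510 and 0.820 CPM in WT and 1.76, 1.01 and 1.19 CPM in KO. Like Tph2 and Slc6a4, both were highest in KO 1 and lowest in WT 2. They were the 2 of 10 tested identity factors with that order, while 3 were highest in KO 1 and 4 lowest in WT 2. It was also the order of 3 of 14 other monoamine neuron markers and 1 of 9 adrenergic receptors. So it was for 1 of 9 vascular, blood and microglia genes and 1 of 3 glycinergic genes, and for no tested gene of the other related lists. Of 5 tested brainstem motor and cholinergic genes, 4 were highest in KO 1 and 0 lowest in WT 2. En2, the paralogue of En1, was also lowest in WT 2 (14.0 CPM) but highest in KO 3 (19.1 CPM), with KO 1 at 14.9 CPM. Lmx1b, a factor that serotonin neurons need, was also highest in KO 1 (1.96 CPM) but lowest in KO 2 (1.22 CPM), with WT 1 next (1.51 CPM), and Nr4a2, a factor of dopamine neurons, was highest in KO 2 (34.8 CPM) and lowest in KO 3 (26.9 CPM). Of the 14 identity transcription factors on that list, 10 were tested, and its summed level ranged from 59.7 to 63.2 CPM in WT and from 61.6 to 69.0 CPM in KO. Hand2 was at 0 in all libraries, and Pitx3, a factor of midbrain dopamine neurons, had at most 4 counts in any.

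The 15 hindbrain Hox genes followed another order. Their summed level was 4.48, 6.06 and 11.2 CPM in WT and 9.47, 1.84 and 2.49 CPM in KO. Of the 9 tested, 0 had an unadjusted p-value under 0.05, beside 7.92% of all genes tested. All 9 log2 fold changes were below 0, while 50.1% of all genes tested were above 0. Tph2 was highest in KO 1, high in Hox transcripts, followed by WT 1, which was lower in them. Libraries KO 2 and KO 3, lowest in Hox transcripts, held more Tph2 than WT 2 and WT 3. A link between the levels of Hox genes and Tph2 was not tested. Slc6a5, the glycine transporter of hindbrain and spinal neurons, measured 40.9, 34.5 and 50.3 CPM in WT and 52.0, 32.1 and 26.1 CPM in KO. Like the summed Hox genes, it was highest in WT 3 and KO 1 and lowest in KO 2 and KO 3. Slc32a1, the vesicular transporter of GABA and glycine, was the gene of the glycinergic list with the smallest p-value (log2 fold change 0.23, SE 0.0651, edgeR adjusted p = 0.576). It was highest in KO 1 and lowest in WT 2, at 75.0, 63.9 and 74.3 CPM in WT and 87.1, 81.3 and 80.8 CPM in KO.

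Of the olfactory bulb list, 8 of 8 genes were tested, 4 had an unadjusted p-value under 0.05, all higher in KO (4.54% of all genes tested), and 0 an adjusted one. Its summed level was 222 to 248 CPM in WT and 251 to 278 CPM in KO, and no marker was at 0. Cdhr1, a marker of mitral and tufted cells, measured 27.4, 21.1 and 28.7 CPM in WT and 34.1, 44.5 and 29.4 CPM in KO (log2 fold change 0.48, SE 0.142; edgeR adjusted p = 0.576), and Tbx21, a factor of the same cells, 0.797, 0.383 and 0.820 CPM in WT and 1.24, 1.52 and 1.13 CPM in KO (0.94, SE 0.275; edgeR adjusted p = 0.576). Both were highest in KO 2 and lowest in WT 2, the libraries in which Th was highest and lowest, as were 5 of the 8 genes of the list. WT 2 was lowest for 7 of the 8, including Pax6 (40.2 CPM), which was highest in WT 1 (47.7 CPM), and Calb2 (77.6 CPM), which was highest in KO 3 (98.3 CPM). Tbr1 was lowest in KO 2 (61.2 CPM). Th counts per Slc6a3 count were likewise highest in KO 2 (1.71) and lowest in WT 2 (1.08), with the other 4 libraries between 1.26 and 1.45. The bulb holds Th-expressing interneurons. WT 2 was also the lowest library for 6 of 8 tested hypothalamic neuron genes and 7 of 14 other monoamine neuron markers. The summed level of the 10 hypothalamic genes was 21.4, 15.2 and 26.0 CPM in WT and 21.6, 19.99 and 21.1 CPM in KO. Their median log2 fold change was 0.038, with 0 tested genes at an unadjusted p-value under 0.05, beside 7.92% of all genes. The part of region markers in the values of the members was not tested.

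**Figure D4:**
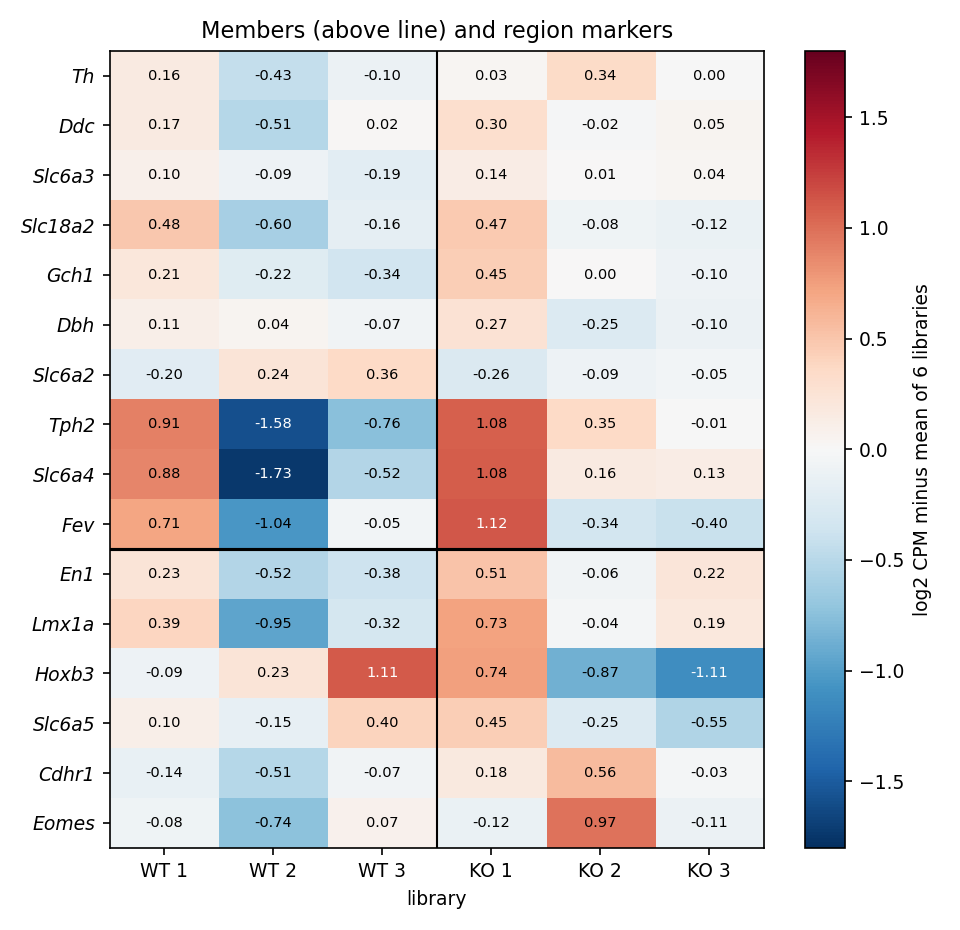
Log2 CPM minus the mean of the 6 libraries (colour and printed value) for the 10 genes (above the line) and for 6 region markers (below it, chosen after their values were seen: En1 and Lmx1a, midbrain; Hoxb3 and Slc6a5, hindbrain; Cdhr1 and Eomes, olfactory bulb), in 3 WT and 3 KO libraries. Tph2, Slc6a4, Fev, Slc18a2, Ddc, En1 and Lmx1a are high in WT 1 and KO 1 and low in WT 2, whereas Hoxb3 is highest in WT 3 and Cdhr1 and Eomes in KO 2.

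By edgeR's test with its filter on low counts, the other genes of the pathways showed no call. In the 8 lists of pathway genes, neuron markers and receptors, 70 of 80 genes were tested, 0 were called by edgeR's test at an adjusted p-value of 0.05, and 6 were higher and 2 lower at an unadjusted p-value under 0.05, against 4.54% and 3.38% of all genes tested. The 8 lists of region and other cell type markers held 64 genes, of which 49 were tested, 0 called, and 8 higher and 2 lower at an unadjusted p-value under 0.05. By DESeq2, 2 genes of the 16 lists had an adjusted p-value under 0.05, beside 23 over all genes. Without the filter edgeR called 13 genes of the lists, beside 298 of 37245 genes. Of 7 other genes of cofactor synthesis, regeneration and its regulation, 6 were tested, with 0 at an unadjusted p-value under 0.05 and a median log2 fold change of -0.059. Qdpr, which regenerates the cofactor, measured 91.6 ± 5.45 CPM in WT and 85.9 ± 4.76 CPM in KO.

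Of 11 genes for breakdown and low-affinity uptake, all were tested, with a median log2 fold change of 0.036. At an unadjusted p-value under 0.05, 3 were higher and 0 lower, beside 4.54% and 3.38% of all genes tested. Aldh2, an aldehyde dehydrogenase that acts on aldehydes made by monoamine oxidase, measured 46.2 ± 5.23 CPM in WT and 52.4 ± 1.08 CPM in KO (log2 fold change 0.18, SE 0.0745; edgeR adjusted p = 0.616). Sult1a1, a sulfotransferase, measured 3.60, 4.21 and 3.28 CPM in WT and 5.47, 9.80 and 3.24 CPM in KO (0.73, SE 0.306; edgeR adjusted p = 0.616), so its difference lay in KO 1 and KO 2. The groups of Aldh2 did not overlap, as for 14.4% of all genes tested, and neither gene passed the test over all genes.

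Among the identity transcription factors, 2 were higher and 1 lower at an unadjusted p-value under 0.05, of 10 tested, beside 4.54% and 3.38% of all genes. Gata2, which acts in the serotonin lineage and also in other neurons and vessels, measured 3.99 ± 0.436 CPM in WT and 5.30 ± 0.827 CPM in KO (log2 fold change 0.41, SE 0.143; edgeR adjusted p = 0.579). Its groups did not overlap, as for 14.4% of all genes tested. Of 14 other markers of monoamine neurons, 1 was higher and 0 lower at that level: Vgf, a neuropeptide precursor found in many neurons, at 59.2 ± 8.90 CPM in WT and 80.9 ± 7.98 CPM in KO (0.45, SE 0.0982; edgeR adjusted p = 0.550).

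Receptors for the 3 transmitters lie mostly on target neurons in other regions. Of 28 receptor genes, 25 were tested, with a median log2 fold change of -0.015. At an unadjusted p-value under 0.05, 0 were higher and 1 lower, beside 4.54% and 3.38% of all genes tested. The 4 tested dopamine receptors had a median of -0.059, the 9 adrenergic receptors 0.11 and the 12 serotonin receptors -0.093. Drd1, the receptor of direct-pathway striatal neurons, measured 29.2 ± 1.82 CPM in WT and 27.6 ± 2.20 CPM in KO. Htr1d, a presynaptic serotonin receptor, was the 1 lower, at 4.59, 3.57 and 4.44 CPM in WT and 2.96, 2.91 and 3.76 CPM in KO (log2 fold change -0.39, SE 0.152; edgeR adjusted p = 0.600), and its groups overlapped. Htr2c, a receptor abundant in choroid plexus, measured 74.6 ± 2.76 CPM in WT and 67.1 ± 7.29 CPM in KO (-0.15, SE 0.0712; edgeR adjusted p = 0.628). Of the receptors for adrenaline and noradrenaline, Adra2a, which encodes an autoreceptor of noradrenaline neurons, measured 11.7 ± 1.14 CPM in WT and 13.4 ± 1.07 CPM in KO (0.19, SE 0.0960; edgeR adjusted p = 0.653).

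**Figure D5:**
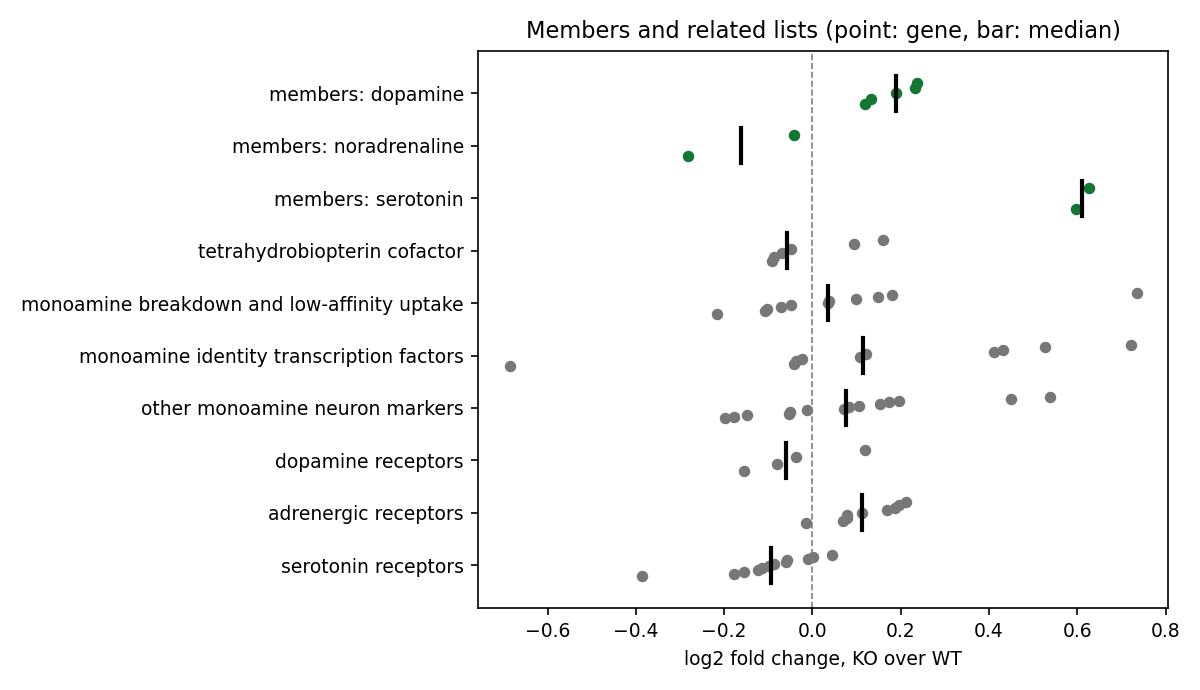
Log2 fold change, KO over WT, of each tested gene (points) of the 10 genes by transmitter (green; Slc18a2, Ddc and Gch1, shared by several transmitters, are drawn with dopamine) and of 7 related lists (grey), with list medians as black bars. The serotonin genes lie at 0.60 and 0.63, and the receptor lists at medians between -0.093 and 0.11.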

How the data were processed

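The authors deposited 1 table per library of raw read counts per gene in the layout of the aligner STAR, with 3 columns by strand. The submitters' processing notes name cutadapt 1.9.1 and STAR 2.7.0f. Per the labels' protocols, total RNA was selected for molecules over 200 bp and made into TruSeq Total RNA libraries. The annotation is not given in the sources used here. All 55450 gene IDs matched GENCODE M21 (GRCm38), which gave names and exon lengths. Column 4, which held 94.6% to 94.8% of stranded counts, was used, and the first 4 rows, which name no gene, were left out.

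Counts were tested in R 4.3.3 with edgeR 4.0.16 (filterByExpr, TMM, quasi-likelihood test, genotype as the sole factor, all 6 libraries), with Benjamini-Hochberg adjustment over 21237 genes and calls at 0.05. The procedure was tested on simulated data. SE is the size of the log2 fold change divided by the square root of F. Log2 CPM used a prior count of 2. Exact permutation tests enumerated 720 orders of the 6 libraries and were added after the design was set. P-values measure the spread between these libraries only. No pair of libraries within a group agreed within sampling noise (chi-square per degree of freedom from 4.40 to 9.50). Alternatives were a different strand column, scaling, filter or tool (DESeq2 1.42.0, limma 3.58.1), a replicate block, leaving out libraries, and, chosen after seeing the data, leaving out WT 3 and KO 1.

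The members and lists were chosen with earlier results of these data known. The rule names Trmt1l, all members, the 5 genes most correlated with each of 2 member means, and allows from each list genes with an adjusted p-value under 0.05 or otherwise the 2 with the smallest p-values; not all of those are named. The genes En1, En2, Lmx1a, Lmx1b, Nr4a2, Pitx3, Hand2, Hoxb3, Tbr1, Pax6, Calb2, Eomes and Hdc were named outside the rule, after their values were seen. Proteins were not analysed here, and the promoter of Slc6a2 is not shown. The result that set WT 3 and KO 1 apart, and 1 gene of a related list, are not reported here.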

Additional observations from a re-analysis of the deposited data

How the results depend on the processing

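Without a filter on low counts 298 of 37245 genes were called, 223 higher and 75 lower. Among them were 2 of the 10 genes (Tph2 at 0.63 and Slc6a4 at 0.60) and 13 genes of the related lists. The DESeq2 Wald test called 23 genes, 17 higher and 6 lower, with 2 of the related lists. DESeq2 gave the 10 genes no adjusted p-value, and in the other alternatives 0 of them were called. Leaving out each library in turn, the count over all genes ran from 2 to 5 (with 0 to 2 higher), 5 being without KO library 3, the calls among the 10 genes and the related lists stayed at 0, and the median of the 9 genes ran from 0.078 to 0.39. The number of the 9 with an unadjusted p-value under 0.05 ran from 0 to 5, the latter without WT library 1. The share of all genes under that level in that fit is not given here. There 2 genes were called over all genes, and edgeR's smallest adjusted p among the 9 was 0.657. The fold change of Slc18a2 turned to -0.0088 with unstranded counts and -0.15 without WT 3 and KO 1, where that of Gch1 turned to -0.061. With 1 library left out Slc18a2 ran from -0.087 to 0.48 (below 0 without WT 2 or KO 1) and Dbh from -0.21 to 0.065 (above 0 without WT 1, KO 2 or KO 3). The causes were not tested. DESeq2 size factors and total counts moved the median over all genes by -0.00042 and -0.010. The replicate block gave 4 calls over all genes, 2 higher and 2 lower, 0 of the 10 genes, a median of 0.21, and 0.83 for Tph2 and 0.78 for Slc6a4 (2 genes with an unadjusted p-value under 0.05). Deviations of same-numbered libraries correlated at 0.0402, -0.0314 and -0.0581 across genes, and 1 of 6 libraries correlated best with the library of its own number, so the numbers were not taken as pairs. Fev, with 1 to 12 counts a library, is limited by depth.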

Other observations

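Libraries WT 3 and KO 1 did not lie on one side of the other 4 for the dopamine and serotonin genes. Slc6a3 was lowest in WT 3 (8.17 CPM) and highest in KO 1 (10.3 CPM), and Th measured 11.8 and 13.0 CPM there, within the range of the others (9.41 to 16.1 CPM). Tph2 measured 3.04 CPM in WT 3 and 11.0 CPM in KO 1.

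Among histamine and melatonin genes, Hdc, which makes histamine, measured between 2.46 and 3.52 CPM, and Aanat, a melatonin enzyme, between 0.550 and 1.15 CPM. Of that list, 0 of 4 tested genes had an unadjusted p-value under 0.05, beside 7.92% of all genes.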
